A study of Mus musculus with 2 samples.

Results

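Ctla4, Pdcd1, Tigit, Lag3 and Cd200 are 5 of the 55487 genes counted in CD4 T cells of mouse fat and spleen, and they were taken by their symbols from both libraries. All mice were 8-week-old wild-type C57BL/6J males, and the labels name no treatment. Live cells (DAPI-) carrying CD3, CD4 and the beta chain of the T cell receptor had been sorted from spleen and from 3 fat depots, the brown (BAT), the subcutaneous (SAT) and the visceral (VAT). Each tissue had 4 samples marked by hashtag antibodies, of which replicates 1 and 2 went into library 1 (experiment 1) and replicates 3 and 4 into library 2 (experiment 2). The labels do not say whether duplicates came from separate animals, so the p-values measure only the spread between these samples, which may be technical. Where sums were made per library, the p-values measure only the spread between library sums. Collagenase was used on fat and not on spleen, so tissue and digestion cannot be told apart in any comparison of fat with spleen.

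The 5 genes encode proteins by which T cells are restrained or restrain others. CTLA-4 takes the ligands CD80 and CD86 away from the costimulatory receptor CD28 and is carried by regulatory T cells (Treg cells), whose defining transcription factor is Foxp3. PD-1, the product of Pdcd1, dampens T cell receptor signals when it binds PD-L1 or PD-L2. TIGIT competes with the activating receptor CD226 for CD155, and LAG-3 binds MHC class II. CD200 differs in kind, since it is the ligand, and its inhibitory receptor CD200R sits mainly on myeloid cells. CXCR6 is a chemokine receptor of effector and tissue-homing T cells.

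On the mouse build mm10 all 5 members are protein-coding genes. Ctla4 lies on chromosome 1 from 60887000 to 60915832 on the forward strand, and Pdcd1 on the same chromosome from 94038305 to 94052553 on the reverse strand. Tigit (43648867 to 43664146) and Cd200 (45382135 to 45409053) both lie on the reverse strand of chromosome 16. Lag3 lies on chromosome 6 from 124904361 to 124911705, also on the reverse strand. Promoters were matched in RefSeq (GRCm38.p6) for 4 of the 5 members. The 250 bases before the start are shown for the 3 members that could be tested between Foxp3 classes, because these moved in the same direction there. Capitals mark the core GGAAA bound by NFAT, a transcription factor activated by the T cell receptor, found on either strand and so also printed as TTTCC.
Ctla4, chr1:60908775-60909024, forward strand: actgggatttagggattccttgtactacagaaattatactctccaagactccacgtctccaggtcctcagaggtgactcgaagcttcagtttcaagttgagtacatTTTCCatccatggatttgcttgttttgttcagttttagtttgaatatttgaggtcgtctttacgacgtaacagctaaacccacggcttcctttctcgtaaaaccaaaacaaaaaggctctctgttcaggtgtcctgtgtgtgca
Pdcd1, chr1:94052554-94052803, reverse strand: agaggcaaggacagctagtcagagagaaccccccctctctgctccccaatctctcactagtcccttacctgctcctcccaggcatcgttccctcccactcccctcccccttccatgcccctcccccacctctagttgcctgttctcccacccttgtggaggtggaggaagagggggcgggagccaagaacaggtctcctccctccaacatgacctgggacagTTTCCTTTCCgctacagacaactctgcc
Cd200, chr16:45409054-45409303, reverse strand: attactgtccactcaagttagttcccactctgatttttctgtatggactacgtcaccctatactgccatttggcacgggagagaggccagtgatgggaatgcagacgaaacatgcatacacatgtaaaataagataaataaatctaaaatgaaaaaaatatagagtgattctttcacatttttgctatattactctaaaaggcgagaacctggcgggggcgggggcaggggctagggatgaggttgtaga
The RefSeq start of Ctla4 lies inside the gene span given above, which opens at an earlier annotated start. The window of Ctla4 held 1 NFAT core and that of Pdcd1 held 2 in tandem, while that of Cd200 held 0. The same core was found in 55.7% of 32536 promoter windows of that length, so its presence sets none of them apart. The AP-1 motif TGANTCA, the forkhead core GTAAACA and the T-box core TCACACC, searched on both strands, had no match in these windows and were found in 6.73%, 3.17% and 3.33% of all windows.

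Library 1 held 29153747 gene UMIs (unique transcript counts) in 4485 barcodes and library 2 held 43879975 in 12239, with 20 barcode sequences common to both. The cell filter left 3985 and 9004 cells, whose median depth was 6107 and 4306.5 UMIs. T cells numbered 3744 and 8312, of which 2941 and 5758 could be given to 1 hashed sample. Tissues rest on the hashtag numbers: the labels give a number to each sample, it was taken as the number in the hashtag's name in the count files, and that match was not tested against another source. The hashtags of SAT replicate 1 and BAT replicate 4 separated poorly from background, and stricter calling kept 90 of 438 and 301 of 539 of their cells. A T cell was called Foxp3-positive with at least 1 Foxp3 UMI, which held for 348 cells of library 1 and 499 of library 2, and Foxp3-zero otherwise (3396 and 7813 cells). Cxcr6-positive and Cxcr6-zero were defined in the same way. A zero class can hold cells whose transcript was present and not captured. Of the Foxp3-positive cells 73.4% lay in 2 clusters carrying all 5 Treg markers (Foxp3, Ikzf2, Il2ra, Lrrc32 and Izumo1r), called Treg-like here.

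Each of the 5 transcripts was found in a larger share of Foxp3-positive than of Foxp3-zero cells in both libraries. A Ctla4 UMI was found in 64.4% (exact 95% interval 59.1 to 69.4) and 47.5% (43.0 to 52.0) of Foxp3-positive cells of libraries 1 and 2, against 9.01% (8.07 to 10.0) and 6.75% (6.20 to 7.32) of Foxp3-zero cells. Pdcd1 was found in 14.4% and 11% of Foxp3-positive cells, against 4.80% and 4.19% of Foxp3-zero cells. Tigit was found in 8.62% and 5.41% of Foxp3-positive cells, against 1.3% and 0.755% of Foxp3-zero cells. The Ctla4 intervals of the classes did not overlap in either library. How many of all genes had a larger share in Foxp3-positive cells was not counted. Lag3 was found in 4.89% and 3.81% of Foxp3-positive cells, against 0.972% and 0.806% of Foxp3-zero cells. Cd200 was found in 9.20% and 9.42% of Foxp3-positive cells, against 5.57% and 4.38% of Foxp3-zero cells. Cd200 had the smallest ratio of the class shares, and in library 1 its intervals (6.37 to 12.7 against 4.82 to 6.39) met. All intervals cover counting error only.

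The depth of the classes was alike, at medians of 6264 and 4469 UMIs per Foxp3-positive cell and 6084.5 and 4449 UMIs per Foxp3-zero cell. With every cell thinned to 1300 UMIs, which left out 7 and 606 shallower T cells, Ctla4 was found in 31.0% and 22.1% of Foxp3-positive cells, against 2.95% and 2.67% of Foxp3-zero cells. Thinned Pdcd1 shares were 3.16% and 2.92% of Foxp3-positive cells, against 1.21% and 1.40% of Foxp3-zero cells. The order of the classes was the same at equal depth, with separate intervals for Ctla4 and with intervals that overlapped for Pdcd1 in both libraries (1.59 to 5.59 against 0.870 to 1.64, and 1.61 to 4.86 against 1.14 to 1.70). Thinned Cd200 shares were 1.72% and 3.76% of Foxp3-positive cells, against 1.3% and 1.22% of Foxp3-zero cells, and in library 1 the intervals overlapped widely (0.635 to 3.71 against 0.945 to 1.74). Thinned Tigit shares were 1.72% and 1.25% of Foxp3-positive cells (6 cells in each library), against 0.236% and 0.249% of Foxp3-zero cells, and their intervals did not overlap (0.635 to 3.71 against 0.102 to 0.465 in library 1, 0.461 to 2.71 against 0.148 to 0.393 in library 2). Lag3 was left with 2 and 4 Foxp3-positive cells, and its intervals overlapped.

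Receptor UMIs in clusters of other cell types give a background to these shares. Free RNA and T cells caught in the same droplet were not told apart in it. T cell markers (mean of Cd3d, Cd3e, Cd3g and Trac) were found in 37.8% of fibroblast-like and 69.6% of erythroid-like cells over both libraries. In fibroblast-like cells, which should not express Ctla4 and had median depths of 5314 and 1813 UMIs, Ctla4 was found in 3.36% of 149 cells and 4.08% of 49 cells. At 1300 UMIs it was found in 0 of 137 fibroblast-like cells of library 1, which allows a share of up to 2.66% (exact upper bound), and in 2.38% of 42 cells of library 2. The last is 1 cell, too few to set a level for library 2. The erythroid-like cells of library 2 (583 cells, median 1478 UMIs, 42.0% of them with hashtags of several samples) carried T cell transcripts too, and their thinned Ctla4 share was 4.37%, above that of Foxp3-zero cells. The thinned Tigit share of Foxp3-zero cells of library 2 was 0.249%, against 0.514% of erythroid-like cells (2 cells). A low share of this size in Foxp3-zero cells is therefore not read as expression by itself. Levels over all T cells did differ between clusters: in library 2 Ctla4 had 37.0 CPM in the cluster led by Cxcr3 and Cxcr6, against 0.93 CPM in a naive-like cluster, and Tigit 3.82 CPM, against 0 CPM. Thinned Pdcd1 in Foxp3-zero cells of library 2 (1.40%) was also close to the erythroid-like share (1.29%). Tigit was found in 0 fibroblast-like cells of either library. Cd200 was found in 51% and 32.7% of fibroblast-like cells, so these cells give no background for it, and the erythroid-like cells of library 2 had it in 0.771% at 1300 UMIs, against 1.22% of Foxp3-zero cells.

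**Figure D1:**
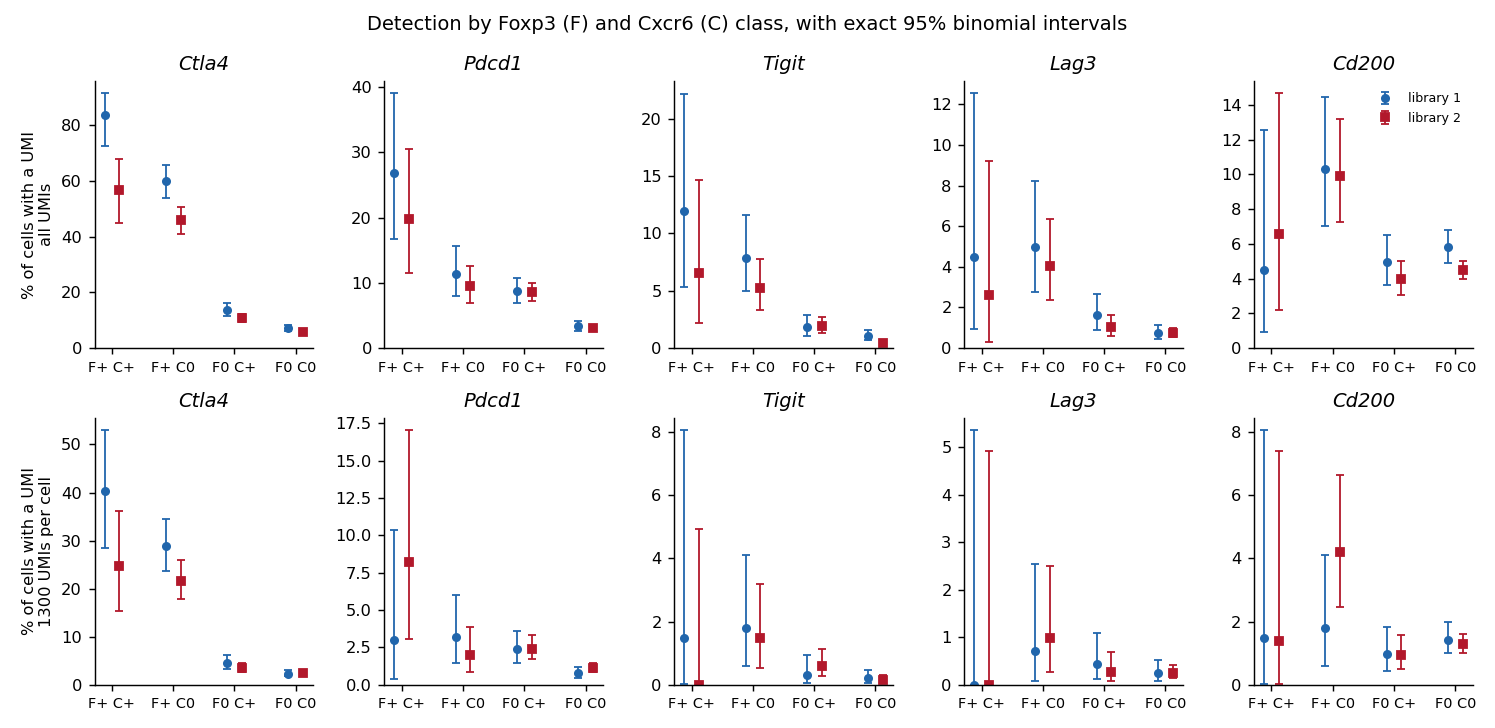
Percent of T cells with at least 1 UMI of each receptor (y axis, each panel with its own scale) in the 4 classes by Foxp3 (F) and Cxcr6 (C), for library 1 (circles) and library 2 (squares), with exact 95% binomial intervals as bars; the upper row uses all UMIs and the lower row cells thinned to 1300 UMIs. Both Foxp3-positive classes stand above both Foxp3-zero classes for Ctla4 in either row, and the Cxcr6-positive class is the higher of each Pdcd1 pair in the upper row.

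Summed per hashed sample, the 3 members that passed the count filter were all higher in Foxp3-positive cells, and Ctla4 was the one whose classes did not overlap. Sums of at least 20 cells in both classes existed for 14 of the 16 hashed samples, BAT replicates 2 and 3 being left out, and the sample entered the fit as a block. Of 7355 genes tested 17.7% passed an adjusted p of 0.05, with 9.31% higher and 8.36% lower in Foxp3-positive cells. Ctla4 ran from 105 to 638 CPM (a gene's UMIs relative to all UMIs of the sum, on the usual scale of that name) with a median of 371 in Foxp3-positive cells, against 5.83 to 47.2 CPM with a median of 23.8 in Foxp3-zero cells. It was higher in Foxp3-positive cells of 14 of 14 samples, and its log2 fold change was 3.8 ± 0.10 (± SE, adjusted p = 4.3e-25). Pdcd1 ran from 0 to 114 CPM (median 32.8) in Foxp3-positive cells, against 2.11 to 25.5 CPM (median 13.4) in Foxp3-zero cells. The Pdcd1 classes overlapped, with 13 of 14 samples higher in Foxp3-positive cells and a log2 fold change of 1.24 ± 0.19 (adjusted p = 7.1e-06). Cd200 ran from 6.17 to 47.8 CPM (median 22.7) in Foxp3-positive cells, against 6.32 to 18.2 CPM (median 10.6) in Foxp3-zero cells. It was higher in 11 of 14 samples, by 0.86 ± 0.24 on the log2 scale (adjusted p = 0.0081). Without library 2 the Cd200 difference was 0.67 with an adjusted p of 0.32.

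Tigit and Lag3 fell below the count filter and were not tested in these sums. Tigit had 50 UMIs over the Foxp3-positive sums of the 16 samples and 84 over the Foxp3-zero sums, and Lag3 had 41 and 92. The median of Tigit was 13.5 CPM in Foxp3-positive cells, against 2.31 CPM in Foxp3-zero cells, and it was higher in 11 of 14 samples. The median of Lag3 was 7.25 CPM in Foxp3-positive cells, against 2.42 CPM in Foxp3-zero cells, and it was higher in 10 of 14 samples. Both were listed at 0 in 5 Foxp3-positive sums of the 16. Sums over whole libraries made a fit of 4 sums with 1 residual degree of freedom. Tigit was higher there by 2.65 ± 0.32 and Lag3 by 2.05 ± 0.31 on the log2 scale. These sums hold no spread between hashed samples, so no p-value is read from them. Per library, Tigit had 12.6 and 12.5 CPM in Foxp3-positive cells, against 1.93 and 1.76 CPM in Foxp3-zero cells. Lag3 had 9.03 and 12.5 CPM in Foxp3-positive cells, against 2.36 and 2.42 CPM in Foxp3-zero cells.

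**Figure D2:**
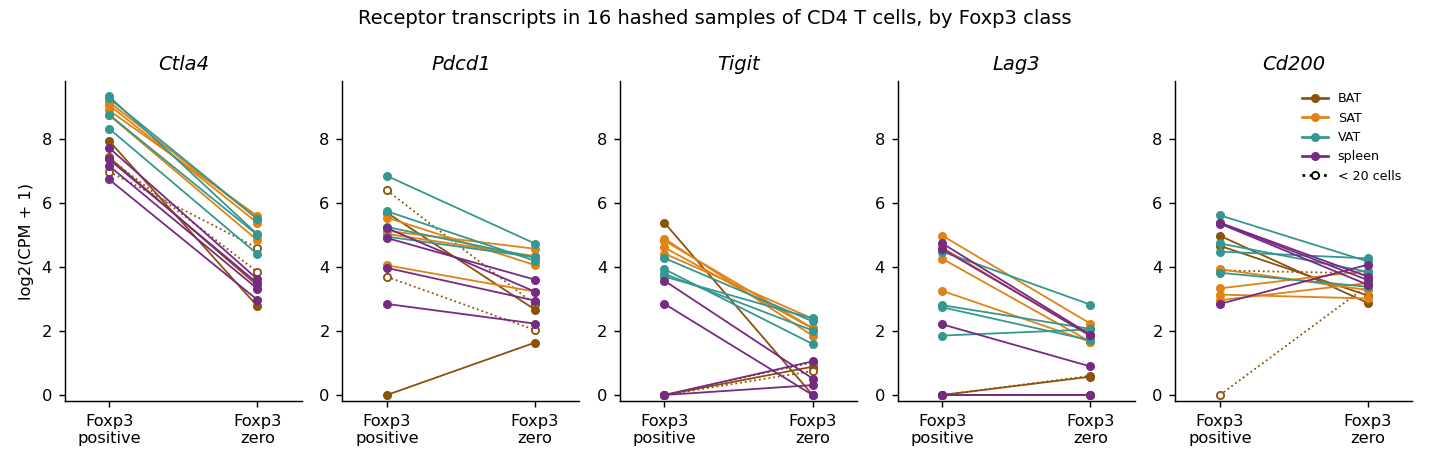
Level of each receptor as log2(CPM + 1) (y axis) in the Foxp3-positive and Foxp3-zero cells of each of 16 hashed samples, joined by a line and coloured by tissue; open circles with dotted lines mark the 2 BAT samples with under 20 Foxp3-positive cells. Every Ctla4 line falls towards the Foxp3-zero side, 13 of the 14 solid Pdcd1 lines do, and several Tigit and Lag3 lines start at 0.

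Markers of other cell types and states moved with the classes. The summed B cell markers had 19.5 and 18.7 CPM in Foxp3-positive cells of libraries 1 and 2, against 5.36 and 2.85 CPM in Foxp3-zero cells. The summed myeloid markers had 141 and 135 CPM in Foxp3-positive cells, against 96.2 and 120 CPM in Foxp3-zero cells, and the fibroblast markers 7.58 and 0.367 CPM, against 5.36 and 0.302 CPM. The summed NK cell markers had 8.30 and 13.2 CPM in Foxp3-positive cells, against 64.3 and 49.5 CPM in Foxp3-zero cells. The Th1 markers had 835 and 1054 CPM, against 1733 and 1798 CPM, and the naive T cell markers 797 and 828 CPM, against 1594 and 1609 CPM. Hashtags of several samples marked 8.05% and 9.42% of Foxp3-positive cells, against 3.71% and 6.45% of Foxp3-zero cells. Without these cells Ctla4 was found in 63.8% and 48.0% of Foxp3-positive cells, against 8.72% and 6.64% of Foxp3-zero cells, and Pdcd1 in 13.1% and 11.1%, against 4.53% and 4.10%. The sums per hashed sample hold none of them. The part of the marker differences in these results was not tested.

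A small group of Foxp3-zero cells carried a part of the Ctla4 and Tigit UMIs well above its share of cells. The Treg-like clusters held 294 of the 11209 Foxp3-zero cells (2.62%), and these contributed 24.2% of all Ctla4 UMIs of the class, at 233 CPM inside against 18 CPM outside the clusters. They contributed 18.3% of its Tigit UMIs (13.9 CPM inside, 1.53 CPM outside) and 8.71% of its Pdcd1 UMIs (45.2 CPM inside, 11.7 CPM outside). For Lag3 and Cd200 the contribution was 6.29% and 5.79%. These are descriptions, since the clusters were made from the same counts.

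Among T cell clusters, Ctla4, Pdcd1, Tigit and Lag3 had their highest level over both libraries in the same Treg-like cluster, and Cd200 did not. The clusters were made from these same counts, and Ctla4 and Pdcd1 were each among the leading genes of a cluster named here. How many of all genes had their highest level in that Treg-like cluster was not counted. The Treg-like cluster led by Cxcl2, Ctla4 and Ikzf2 (511 cells) held 53.6% of the 3210 Ctla4 UMIs of all T cells, at 540 CPM, and 42.1% of the 178 Tigit UMIs, at 23.6 CPM. Pdcd1 had 61.9 CPM and Lag3 15.1 CPM in it, which were 21.0% and 23.8% of their UMIs. In library 1 alone Lag3 was lower there (11.8 CPM) than in the Tfh-like cluster described next (14.8 CPM). A cluster led by Gpm6b, Tbc1d4 and Slamf6 with 3 markers of follicular helper T cells (661 cells, Tfh-like) held 22.4% of the 937 Pdcd1 UMIs, at 49.4 CPM, and 28.7% of the 202 Lag3 UMIs, at 13.7 CPM. Cd200 had 43.6 CPM there and 35.4 CPM in the Treg-like cluster led by Il2ra and Foxp3. In an unnamed cluster of 173 cells led by Itm2a, Lgals7 and Egr3 Cd200 had 25.6 CPM in library 1 and 57.7 CPM in library 2, where the Tfh-like cluster had 52.9 and 38.2 CPM. In that unnamed cluster Ctla4 and Lag3 were listed at 0.

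The genes around these receptors are counted here beside the 17.7% of all genes that passed, 9.31% upwards and 8.36% downwards in Foxp3-positive cells. Of 7 costimulatory counterparts, 7 were tested, 5 were higher and 2 lower in Foxp3-positive cells, and the median log2 fold change was 1.68 where all genes tested had -0.01. The rise was 3.40 ± 0.24 for Tnfrsf9 (4-1BB), 3.27 ± 0.13 for Tnfrsf4 (OX40) and 1.84 ± 0.10 for Icos, while Cd226, the activating rival of TIGIT, fell by 0.95 ± 0.16 on the log2 scale. Cd28, the rival of CTLA-4 for its ligands, fell by 0.33 ± 0.07. Of 14 ligands and binding partners 5 were tested and 4 were higher, with a median of 0.99. They were Pdcd1lg2 (PD-L2, 2.04 ± 0.23), Cd200r1 (the receptor of CD200, 1.38 ± 0.16), Lgals3 (0.99 ± 0.18) and Cd274 (PD-L1, 0.59 ± 0.19).

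Of 11 other inhibitory receptors 6 were tested, 3 were higher and 1 lower, with a median of 0.15. Klrg1, a receptor for cadherins, was higher by 2.95 ± 0.18 and Cd101 by 1.01 ± 0.24, while Btla fell by 0.65 ± 0.16. Of 9 signalling and trafficking partners 3 were higher and 2 lower, with a median of -0.01. Lrba, which protects CTLA-4 from lysosomal breakdown, was higher by 0.66 ± 0.14, and Ptpn6, the phosphatase SHP-1, fell by 0.72 ± 0.11. Of 16 transcription factors 13 were tested, 7 were higher and 3 lower, with a median of 1.00. Ikzf2 (Helios) was higher by 3.81 ± 0.10 and Prdm1 (Blimp-1) by 1.49 ± 0.18, and Tcf7 (TCF-1) fell by 1.59 ± 0.12. Each adjusted p named with these lists was below the threshold over all 7355 genes.

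Within Foxp3-positive cells, those with a Cxcr6 UMI had more Ctla4 and Pdcd1 and less Cd200, while Tigit and Lag3 did not pass the test. This comparison used 8 sums, 1 per library and class, with 3 residual degrees of freedom, and 3.42% of 11680 genes passed, 2.09% higher and 1.34% lower. The Foxp3-positive Cxcr6-positive class held 67 and 76 cells, the Foxp3-positive Cxcr6-zero class 281 and 423. Ctla4 had 557 and 339 CPM in Cxcr6-positive cells of libraries 1 and 2, against 336 and 244 CPM in Cxcr6-zero cells, a log2 fold change of 0.63 ± 0.11 (adjusted p = 0.0016). Pdcd1 had 46.6 and 67.9 CPM in Cxcr6-positive cells, against 28.9 and 26.7 CPM in Cxcr6-zero cells, a log2 fold change of 1.02 ± 0.24 (adjusted p = 0.014). Both receptors were thus higher with Cxcr6 in each library. Cd200 had 6.29 and 10.2 CPM in Cxcr6-positive cells, against 22.8 and 23.9 CPM in Cxcr6-zero cells, and fell by 1.56 ± 0.38 on the log2 scale (adjusted p = 0.020). Tigit had 11.3 and 11.9 CPM in Cxcr6-positive cells, against 13.2 and 12.7 CPM in Cxcr6-zero cells (-0.17 ± 0.47, adjusted p = 0.92). Lag3 had 7.55 and 13.6 CPM in Cxcr6-positive cells, against 9.62 and 12.2 CPM in Cxcr6-zero cells (-0.11 ± 0.50, adjusted p = 0.96). The errors of Tigit and Lag3 leave room for changes of either sign.

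Detection at full depth had the same order in both libraries for these 3 members. Ctla4 was found in 83.6% and 56.6% of Foxp3-positive Cxcr6-positive cells, against 59.8% and 45.9% of Foxp3-positive Cxcr6-zero cells. Pdcd1 was found in 26.9% and 19.7% of Foxp3-positive Cxcr6-positive cells, against 11.4% and 9.46% of Foxp3-positive Cxcr6-zero cells. Cd200 was found in 4.48% and 6.58%, against 10.3% and 9.93%. The Cxcr6-positive cells were deeper, with medians of 9930 and 5768 UMIs against 5888 and 4355 UMIs, and more of them carried hashtags of several samples (14.9% and 23.7% against 6.41% and 6.86%). At 1300 UMIs Ctla4 was found in 40.3% and 24.7% of Foxp3-positive Cxcr6-positive cells, against 28.8% and 21.7% of Foxp3-positive Cxcr6-zero cells. Thinned Pdcd1 shares were 2.99% and 8.22% (2 and 6 cells) with Cxcr6, against 3.20% and 1.97% without, so the order turned in library 1. Thinned Cd200 shares were 1.49% and 1.37% (1 cell each) with Cxcr6, against 1.78% and 4.19% without. Summed thinned counts gave Ctla4 0.63 with an adjusted p of 0.059, Pdcd1 1.35 with 0.45 and Cd200 -1.31 with 0.77, so no member passed at equal depth. Without cells of several hashtags Pdcd1 was at 0.91 with an adjusted p of 0.071. In sums per hashed sample the values were 0.46 for Ctla4 (adjusted p = 0.38), 0.54 for Pdcd1 (adjusted p = 0.76) and -3.22 for Cd200 (adjusted p = 0.18).

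Within Foxp3-zero cells the Cxcr6-positive class was larger, at 931 and 1569 cells against 2465 and 6244 Cxcr6-zero cells. Its Pdcd1, Ctla4 and Tigit sums were higher and its Cd200 sum lower in the same 8-sum fit, in which 41.7% of genes passed (21.2% higher, 20.5% lower), so 4 of 5 members is to be read against a high background. Tissues are pooled in these sums too, and values within tissues are given below. Pdcd1 had 15.6 and 23.5 CPM in Cxcr6-positive cells of libraries 1 and 2, against 7.48 and 11.2 CPM in Cxcr6-zero cells, a log2 fold change of 0.88 ± 0.14 (adjusted p = 1.8e-05). Ctla4 had 35.4 and 29.2 CPM in Cxcr6-positive cells, against 20.01 and 19.9 CPM in Cxcr6-zero cells (0.48 ± 0.12, adjusted p = 0.0032). Tigit had 2.33 and 3.85 CPM in Cxcr6-positive cells, against 1.75 and 1.11 CPM in Cxcr6-zero cells (1.01 ± 0.35, adjusted p = 0.023). The Tigit difference was the wider in library 2, and DESeq2 gave it an adjusted p of 0.089. Cd200 had 10.6 and 10.4 CPM in Cxcr6-positive cells, against 12.5 and 13.5 CPM in Cxcr6-zero cells (-0.50 ± 0.14, adjusted p = 0.0065). That Cd200 call was lost with scaling by library size alone (-0.31, adjusted p = 0.073), with DESeq2 (-0.48, adjusted p = 0.11) and with thinned cells (-0.66, adjusted p = 0.15). Lag3 had 3.57 and 2.10 CPM in Cxcr6-positive cells, against 1.81 and 2.51 CPM in Cxcr6-zero cells, opposite signs in the 2 libraries (0.16 ± 0.33, adjusted p = 0.73).

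The effect of Cxcr6 was not shown to differ between the Foxp3 classes for any of the 5 members, while 4.74% of all genes passed that test (2.01% higher, 2.73% lower). The difference of the log2 fold changes was 0.15 ± 0.17 for Ctla4 (adjusted p = 0.75) and 0.14 ± 0.27 for Pdcd1 (adjusted p = 0.88). It was -1.18 ± 0.57 for Tigit (adjusted p = 0.33), -0.27 ± 0.60 for Lag3 (adjusted p = 0.89) and -1.06 ± 0.42 for Cd200 (adjusted p = 0.20). In simulated data this test recovered 26.3% of 2-fold differences, so differences of that size can be missed.

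Cxcr6-positive cells were not spread evenly over the tissues. They made up 44.5% ± 7.75 of Foxp3-zero T cells in SAT and 38.8% ± 8.79 in VAT, but 8.09% ± 2.55 of those in BAT and 3.85% ± 0.781 of those in spleen (mean ± SD over 4 hashed samples). Among Foxp3-positive cells the share was 18.4% ± 3.07 for SAT and 22.2% ± 8.79 for VAT, 2.56% ± 3.10 for BAT, and 2.13% ± 1.70 for spleen. Within tissues the Ctla4 difference of Foxp3-zero cells was negative in SAT and positive in the other 3. In SAT Ctla4 had 37.0 CPM in Cxcr6-positive cells, against 43.2 CPM in Cxcr6-zero cells, and in VAT 32.4 CPM, against 30.7 CPM. In BAT Ctla4 had 31.2 CPM in Cxcr6-positive cells (27 UMIs), against 12.1 CPM in Cxcr6-zero cells, and in spleen 16.8 CPM (8 UMIs), against 9.50 CPM. It was higher in Cxcr6-positive cells of 7 of the 15 hashed samples with at least 10 cells in both classes, and the fit over such sums, with the hashed sample as a term, gave -0.055 (adjusted p = 0.85). No Ctla4 difference with Cxcr6 was thus detected within hashed samples, while BAT, VAT and spleen sums kept the direction of the libraries and SAT did not.

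Pdcd1 was higher in Foxp3-zero Cxcr6-positive cells of all 4 tissues, at 11.6, 20.3, 26.0 and 12.6 CPM in BAT, SAT, VAT and spleen, against 3.55, 16, 16.2 and 7.45 CPM in Cxcr6-zero cells. It was higher in 10 of 15 hashed samples, and the fit per hashed sample gave 0.57 (adjusted p = 0.051). Cd200 was lower in Cxcr6-positive cells of BAT, SAT and VAT, at 8.10, 6.37 and 10.9 CPM, against 9.57, 13.9 and 16.3 CPM in Cxcr6-zero cells, and higher in those of spleen (16.8 CPM against 11.6 CPM). Its fit per hashed sample gave -0.68 (adjusted p = 0.026). Tigit was higher with Cxcr6 in 8 of 15 samples and Lag3 in 5 of 15. Foxp3-positive Cxcr6-positive cells numbered 30 in SAT and 44 in VAT, 2 in BAT, and 3 in spleen. In VAT Ctla4 had 764 CPM in them, against 392 CPM in Foxp3-positive Cxcr6-zero cells, and in SAT 642 CPM, against 467 CPM. Pdcd1 had 80.8 CPM with Cxcr6 in VAT, against 37.2 CPM without, and 35.1 CPM in both classes of SAT. Ctla4 was higher with Cxcr6 in 4 of the 4 samples with enough cells, Pdcd1 in 3 and Cd200 in 0.

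**Figure D3:**
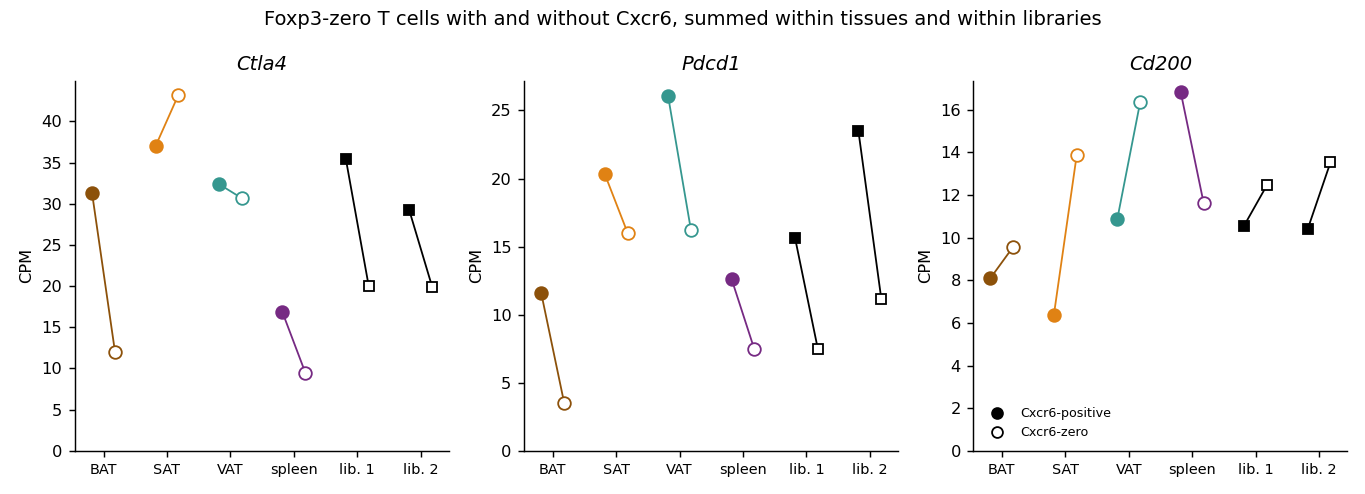
Level of Ctla4, Pdcd1 and Cd200 in CPM (y axis, from 0) in Cxcr6-positive (filled) and Cxcr6-zero (open) Foxp3-zero T cells, summed within each tissue (circles, both libraries together) and within each library (squares). The library pairs of Ctla4 fall towards Cxcr6-zero while its SAT pair rises, and each Pdcd1 pair falls.

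Markers of cell state and of other cell types moved with Cxcr6. The summed Th1 markers (Tbx21, Ifng, Cxcr3, Ccl5 and Nkg7) had 3799 and 4844 CPM in Foxp3-zero Cxcr6-positive cells, against 795 and 862 CPM in Foxp3-zero Cxcr6-zero cells. In Foxp3-positive cells they had 1420 and 1868 CPM with Cxcr6, against 600.02 and 829.1 CPM without. The summed Treg markers other than Foxp3 had 896 and 711 CPM with Cxcr6 there, against 1177 and 1096 CPM without. Gamma-delta T cell markers had 45.3 and 28.8 CPM, against 10.1 and 6.09 CPM, and NK cell markers 16.4 and 25.4 CPM, against 5.06 and 9.84 CPM. Myeloid markers had 189 and 165 CPM, against 122 and 127 CPM. B cell markers were lower with Cxcr6 (16.4 and 8.48 CPM, against 20.8 and 21.6 CPM). The summed naive T cell markers had 652 and 617 CPM in Foxp3-zero Cxcr6-positive cells, against 2022 and 1914 CPM in Foxp3-zero Cxcr6-zero cells. The part of these markers in the receptor values was not tested.

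The gene lists around the receptors are given beside shares of all genes that passed of 3.42% in Foxp3-positive cells and 41.7% in Foxp3-zero cells. In Foxp3-positive cells 2 of 11 other inhibitory receptors passed, Klrg1 (1.35 ± 0.13) and Cd96 (-1.03 ± 0.26), with a median of 0.34 over the list and -0.02 over all genes. Of 16 transcription factors 1 passed, Tox2 (2.50 ± 0.38), and the median was 0.22. Of 10 ligands and partners tested Lgals3 (1.42 ± 0.17) and Cd200r1 (0.84 ± 0.17) were higher, of 7 costimulatory genes Cd226 was higher (0.66 ± 0.13) and Cd27 lower (-0.58 ± 0.10), and of 9 signalling partners Trat1 was lower (-0.85 ± 0.20). In Foxp3-zero cells 5 other inhibitory receptors were higher and 3 lower, led by Lilrb4a (2.60 ± 0.19), Cd160 (2.19 ± 0.12) and Cd244a (2.04 ± 0.28), with a median of 0.77. Of the transcription factors 9 were higher and 3 lower, among them Tbx21 (2.06 ± 0.09), Maf (1.75 ± 0.06) and Nr4a2 (1.69 ± 0.14), with a median of 0.70. Of the ligands Lgals3 (2.48 ± 0.10), Pdcd1lg2 (1.15 ± 0.17) and Cd200r1 (0.99 ± 0.10) were higher and 0 lower, 3 of 10 tested. Of the costimulatory genes 3 were higher, led by Cd226 (1.72 ± 0.06), and 1 lower, and of the signalling partners 4 were higher and 2 lower. The Cxcr6 effect differed between the Foxp3 classes for 7 of 16 transcription factors, 3 of 11 other inhibitory receptors, 2 of 10 ligands, 2 of 7 costimulatory genes and 0 of 9 signalling partners, against 4.74% of all genes, with Maf at -1.55 ± 0.10 and Pdcd1lg2 at -1.83 ± 0.33.

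Ctla4 in Foxp3-positive cells was higher in SAT and VAT than in spleen, with no overlap between these groups of samples. In replicates 1 to 4 it had 170, 167, 124 and 243 CPM in BAT, 566, 529, 425 and 471 CPM in SAT and 612, 638, 429 and 317 CPM in VAT, against 105, 141, 209 and 162 CPM in spleen. SAT and VAT values all exceeded those of BAT and spleen, and the BAT values lay within or near the spleen range. The tissue test over 14 sums of at least 20 cells (BAT replicates 1 and 4 only) gave an adjusted p of 1.6e-06 for Ctla4, where 11.2% of 4640 genes passed. The log2 fold change was 1.58 ± 0.20 for SAT against spleen (adjusted p = 2.9e-06, with 9.42% of genes passing and 5.71% higher) and 1.61 ± 0.20 for VAT against spleen (adjusted p = 1.1e-06, 11.9% passing, 6.92% higher and 4.98% lower). BAT against spleen gave 0.39 ± 0.32 (adjusted p = 0.83, 0.431% passing, 0.388% higher and 0.0431% lower), and SAT against VAT gave -0.03 ± 0.18 (adjusted p = 1.0, 0.216% passing, 0.0216% higher and 0.194% lower). BAT against SAT gave -1.19 ± 0.29 (adjusted p = 0.028, 2.09%) and BAT against VAT gave -1.22 ± 0.29 (adjusted p = 0.015, 2.72% passing, 1.51% lower). Both BAT differences rest on 2 sums of 25 cells. BAT against SAT lost its call without BAT replicate 1 (-0.82, adjusted p = 0.58), BAT replicate 4 (-1.57, adjusted p = 0.086) or SAT replicate 1 (-1.16, adjusted p = 0.064), without library 1 (-0.81, adjusted p = 0.53) and with stricter hashtag calls (-1.70, adjusted p = 0.13). BAT against VAT lost it without BAT replicate 1 (-0.84, adjusted p = 0.54) and without library 1 (-0.55, adjusted p = 0.64).

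The other members of Foxp3-positive cells were sparse by tissue. Pdcd1 had 0, 11.9, 82.8 and 50.6 CPM in BAT, 45.5, 15.6, 31.7 and 33.9 CPM in SAT and 52.3, 29.8, 36.9 and 114 CPM in VAT, against 6.17, 28.9, 14.6 and 36.1 CPM in spleen. These groups overlapped, the tissue test gave an adjusted p of 0.31, and VAT against spleen gave 1.23 ± 0.49 (adjusted p = 0.11). That contrast passed without VAT replicate 3 (1.56, adjusted p = 0.0495) and with no count filter (1.23, adjusted p = 0.049). Tigit was found in every SAT sample (20.3 to 28.4 CPM) and every VAT sample (12 to 18.3 CPM), but was listed at 0 in 3 of 4 BAT and 2 of 4 spleen samples. Its SAT values all lay above its VAT values, on 2 to 10 UMIs per sample, and no test was run because it fell below the count filter. Lag3 had 8.53, 23.3, 18.1 and 30.5 CPM in SAT and 2.62, 21.3, 5.68 and 5.98 CPM in VAT, against 0, 3.61, 25.6 and 22.6 CPM in spleen. In BAT 0 Lag3 UMIs were found in the 80 Foxp3-positive cells, where 3 UMIs would have been 24.2 to 41.4 CPM per sample. Cd200 had 24.2, 0, 13.8 and 30.4 CPM in BAT, 14.2, 7.78, 9.04 and 6.78 CPM in SAT and 13.1, 21.3, 25.6 and 47.8 CPM in VAT, against 6.17, 39.7, 40.3 and 40.6 CPM in spleen. The Cd200 values of 3 spleen samples lay above every SAT value, and Cd200 was not tested here for the same reason as Tigit.

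In Foxp3-zero cells Ctla4 and Pdcd1 were both higher in SAT and VAT than in spleen and BAT. Ctla4 had 9.70, 13.3, 23.1 and 5.83 CPM in BAT, 44.2, 40.5, 27.5 and 47.2 CPM in SAT and 44.2, 31.4, 31.0 and 20.2 CPM in VAT, against 6.84, 8.98, 11.3 and 10.3 CPM in spleen. Every SAT and VAT value lay above every spleen value, and BAT replicate 3 exceeded the lowest VAT value. The tissue test over 16 sums gave Ctla4 an adjusted p of 4.2e-06, where 47.3% of 10020 genes passed. The log2 fold change was 1.91 ± 0.27 for SAT against spleen (adjusted p = 3.2e-06, 40.2% of genes passing, 21.2% higher and 19% lower) and 1.59 ± 0.27 for VAT against spleen (adjusted p = 6.0e-05, 37.1% passing, 19.3% higher and 17.9% lower). It was -1.42 ± 0.26 for BAT against SAT (adjusted p = 0.00018, 34.7%) and -1.10 ± 0.27 for BAT against VAT (adjusted p = 0.0031, 32% passing, 17.5% lower), the last lost without library 1 (-0.66, adjusted p = 0.29). BAT against spleen (0.49 ± 0.33, adjusted p = 0.43, 7.74% passing, 4.58% higher) and SAT against VAT (0.32 ± 0.22, adjusted p = 0.51, 4.56% passing, 2.86% higher) did not pass. Foxp3-zero cells of the Treg-like clusters held 24.2% of the Ctla4 and 8.71% of the Pdcd1 UMIs of this class over both libraries. The Treg marker Ikzf2 was lower in BAT than in SAT (-1.39 ± 0.15), VAT (-1.24 ± 0.15) and spleen (-0.98 ± 0.15). It was higher in SAT than in spleen (0.41 ± 0.12). The part of such cells in the tissue differences was not tested.

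Pdcd1 had 2.11, 3.08, 6.1 and 5.34 CPM in BAT, 15.6, 8.36, 19.2 and 22.7 CPM in SAT and 17.2, 18.7, 18.6 and 25.5 CPM in VAT, against 3.68, 11.1, 6.71 and 8.35 CPM in spleen. VAT and spleen did not overlap, nor did BAT overlap with SAT or VAT, while SAT replicate 2 lay within the spleen range. The tissue test gave Pdcd1 an adjusted p of 7.6e-07. VAT against spleen gave 1.33 ± 0.22 (adjusted p = 4.5e-05) and SAT against spleen 1.08 ± 0.23 (adjusted p = 0.00053), the second at 0.58 with an adjusted p of 0.33 without library 2. BAT against SAT gave -1.87 ± 0.28 (adjusted p = 1.0e-05) and BAT against VAT -2.11 ± 0.27 (adjusted p = 2.0e-06). BAT against spleen (-0.79 ± 0.32, adjusted p = 0.14) and SAT against VAT (-0.25 ± 0.20, adjusted p = 0.58) did not pass.

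**Figure D4:**
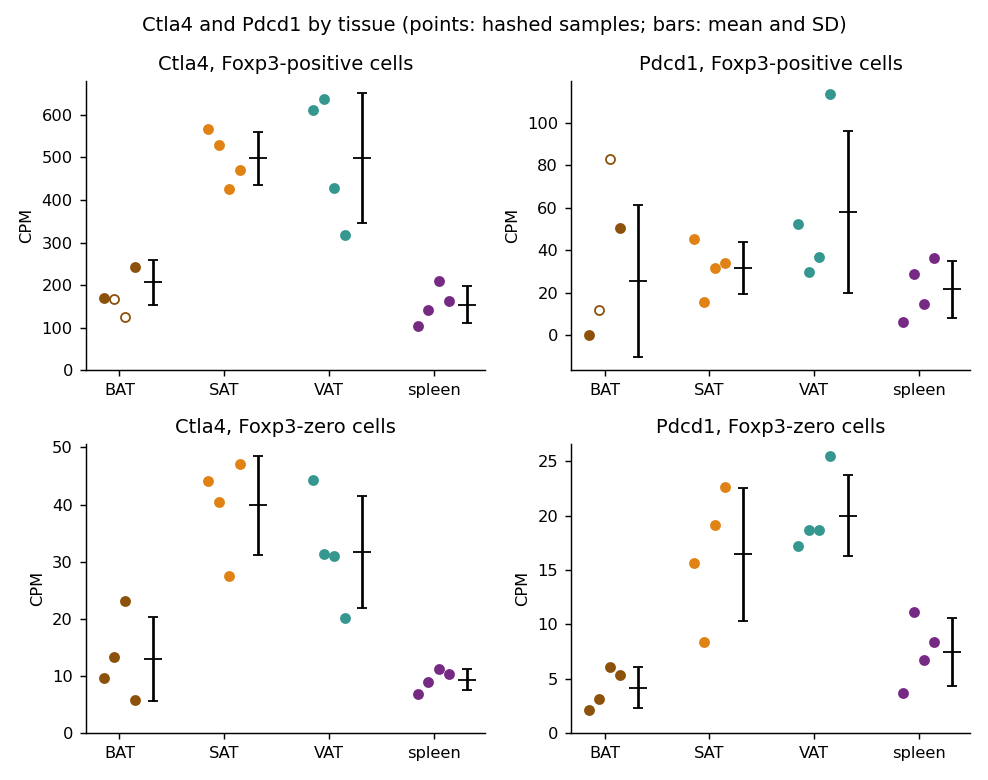
Ctla4 (left) and Pdcd1 (right) in CPM (y axis, panels with their own scales) in Foxp3-positive cells (top) and Foxp3-zero cells (bottom) of each hashed sample, by tissue; points are samples, open points have under 20 cells and were left out of the mean, and bars show the mean and SD of the others (n = 2 in BAT of the top row, otherwise 4). Ctla4 of SAT and VAT lies above spleen in both rows, at means of 39.8 and 31.7 CPM against 9.34 CPM in Foxp3-zero cells.

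Cd200 did not follow that pattern. In Foxp3-zero cells it had 7.6, 9.75, 12.9 and 6.32 CPM in BAT, 8.67, 7.07, 13.8 and 10.3 CPM in SAT and 9.39, 18.2, 13.3 and 17.0 CPM in VAT, against 15.8, 9.84, 11 and 11.9 CPM in spleen. All 4 tissues overlapped, the tissue test gave an adjusted p of 0.15, and none of its 6 pairwise contrasts passed. BAT against VAT gave -0.50 ± 0.23 (adjusted p = 0.11) and passed without VAT replicate 1 (-0.63, adjusted p = 0.048) or BAT replicate 3 (-0.72, adjusted p = 0.044). Tigit and Lag3 were below the count filter here too. Tigit averaged 0.637 ± 0.448 CPM in BAT, 3.32 ± 0.667 CPM in SAT and 3.30 ± 0.998 CPM in VAT, against 0.435 ± 0.460 CPM in spleen (SD, n = 4). Every SAT and VAT value of Tigit lay above every BAT and spleen value, on 5 to 16 UMIs per SAT or VAT sample and 0 to 4 per BAT or spleen sample. How many of all genes separated in this way was not counted. Over both libraries 18.3% of the Tigit UMIs of Foxp3-zero cells came from the Treg-like clusters. Lag3 averaged 0.250 ± 0.289 CPM in BAT, 2.65 ± 0.718 CPM in SAT and 3.66 ± 1.66 CPM in VAT, against 1.54 ± 1.33 CPM in spleen, where replicates 3 and 4 reached 2.68 and 2.62 CPM and overlapped with SAT and VAT.

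The tissues also differed in markers of cell state, beside which these levels stand. In Foxp3-zero cells the median of the summed Th1 markers was 671 CPM in BAT, 3502 CPM in SAT and 2964 CPM in VAT, against 147 CPM in spleen. The naive T cell markers had medians of 1995, 1000 and 1085 CPM in BAT, SAT and VAT, against 2230 CPM in spleen. In Foxp3-positive cells the Th1 markers had medians of 725, 1504 and 702 CPM in BAT, SAT and VAT, against 112 CPM in spleen. The naive T cell markers of Foxp3-positive cells had medians of 1054, 443 and 341 CPM in BAT, SAT and VAT, against 994 CPM in spleen. They were thus low in SAT and VAT, where Ctla4 was high. Markers of other cell types differed as well in Foxp3-zero cells, with NK cell medians of 14.6, 48.9 and 98.2 CPM in BAT, SAT and VAT (up to 310 CPM in 1 VAT sample), against 15.1 CPM in spleen. The gamma-delta T cell markers had medians of 12.4, 51.8 and 24.0 CPM in BAT, SAT and VAT, against 9.74 CPM in spleen, and the myeloid markers 77.0, 134 and 120 CPM, against 81.7 CPM. Their part in the receptor levels was not tested.

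The gene lists moved with tissue in Foxp3-zero cells to an extent near or above that of all genes. The tissue test passed 12 of 14 transcription factors tested, 7 of 9 signalling partners, 7 of 10 other inhibitory receptors, 5 of 8 ligands and 6 of 7 costimulatory genes, against 47.3% of all genes. For SAT against spleen 5 of 7 costimulatory genes were higher and 1 lower, where 21.2% of all genes were higher and 19% lower, among them Cd226 (2.22 ± 0.12), Tnfrsf18 (1.04 ± 0.12) and Cd27 (-0.96 ± 0.08), and Pdcd1lg2 (1.57 ± 0.30) was among 5 of 8 ligands that were higher. Ptpn6 was lower in SAT (-0.47 ± 0.09) and in VAT (-0.58 ± 0.09) than in spleen. In Foxp3-positive cells it passed 10 of 14 transcription factors, 5 of 7 costimulatory genes, 2 of 4 other inhibitory receptors, 2 of 3 ligands and 1 of 8 signalling partners, against 11.2% of all genes. Here 4 of 7 costimulatory genes were higher in SAT than in spleen, where 5.71% of all genes were, with Tnfrsf4 at 1.24 ± 0.23, Tnfrsf18 at 0.96 ± 0.17 and Icos at 0.95 ± 0.21, and in VAT 4 were higher, where 6.92% of all genes were, and Cd27 was lower (-0.74 ± 0.17). Klrg1 was higher in SAT (2.64 ± 0.30) and VAT (2.57 ± 0.30), and Cd96 lower (-1.33 ± 0.32 and -1.78 ± 0.34). For BAT against spleen no listed gene passed in Foxp3-positive cells by edgeR, where 0.431% of all genes did.

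Cells with UMIs of more than 1 receptor were found in a larger share of Foxp3-positive cells. At least 1 of the 5 transcripts was found in 71.3% and 55.3% of Foxp3-positive cells of libraries 1 and 2, against 17.1% and 14.1% of Foxp3-zero cells. At least 2 were found in 23.6% and 16.2% of Foxp3-positive cells, against 3.56% and 2.25% of Foxp3-zero cells, and at least 3 in 5.75% and 4.21%, against 0.736% and 0.525%. By Cxcr6, at least 2 were found in 37.3% and 19.7% of Foxp3-positive Cxcr6-positive cells, against 20.3% and 15.6% of Foxp3-positive Cxcr6-zero cells. In Foxp3-zero cells the shares were 5.37% and 3.82% with Cxcr6, against 2.88% and 1.86% without. At 1300 UMIs they were 1.49% and 5.48% (1 and 4 cells) of Foxp3-positive Cxcr6-positive cells, against 2.49% and 2.71% of Foxp3-positive Cxcr6-zero cells, with the order turned in library 1. Thinned shares of Foxp3-zero cells were 1.29% and 0.604% with Cxcr6, against 0.0813% and 0.331% without. At 1300 UMIs at least 2 were found in 2.30% and 3.13% of Foxp3-positive cells, against 0.413% and 0.387% of Foxp3-zero cells.

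Most pairs occurred together more often than the product of their shares gives, which is a description, since cells of greater depth hold more of every transcript. In the 847 Foxp3-positive cells Ctla4 and Pdcd1 were found together in 85 cells, against 57.1 from the product, and 81.0% of cells with Pdcd1 also had Ctla4. Ctla4 was also found in 82.5% of cells with Tigit (47 cells, product 31.0) and 83.3% of cells with Lag3 (30 cells, product 19.6). With Cd200 it was found in 43 cells, equal to the product of 43.0. With both libraries pooled, Cd200 thus stood apart from the other 3 in its overlap with Ctla4 among Foxp3-positive cells. In library 2 alone all 10 pairs, this one included, were above the product. In the 11209 Foxp3-zero cells Ctla4 and Cd200 were found together in 104 cells, against 39.5 from the product, and Ctla4 and Pdcd1 in 108 cells, against 36.4.

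Pdcd1 and Lag3 were also found together in Foxp3-zero cells more often than their shares give. They shared 42 cells, against 4.20 from the product, with an odds ratio of 18.5, and 43.8% of cells with Lag3 had Pdcd1. In Foxp3-positive cells the same pair was found in 12 cells, against 4.46 from the product. Summed over the 10 pairs, pairs were counted 276 times in Foxp3-positive cells, against a product of 183, and 464 times in Foxp3-zero cells, against 133. At 1300 UMIs the sums were 25 against 19.2 in Foxp3-positive cells and 48 against 12.3 in Foxp3-zero cells. The sum in Foxp3-zero cells as a whole was above its product at equal depth too, and the thinned Foxp3-positive cells were too few to say. Each class pools clusters, tissues and libraries whose levels differ. Over all T cells Ctla4 and Pdcd1 had 49.7 and 49.4 CPM in the Tfh-like cluster, against 1.29 and 1.51 CPM in the naive-like cluster led by Igfbp4 and Dapl1. The part of this pooling in the excess was not tested. By Cxcr6 the sums in Foxp3-zero cells were 187 against 67.4 with Cxcr6 and 277 against 74.0 without. At 1300 UMIs they were 25 against 5.23 with Cxcr6 and 23 against 7.43 without. The thinned Cxcr6-zero cells of library 1 had no excess (2 against 2.03), and those of library 2 had 21 against 5.40.

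**Figure D5:**
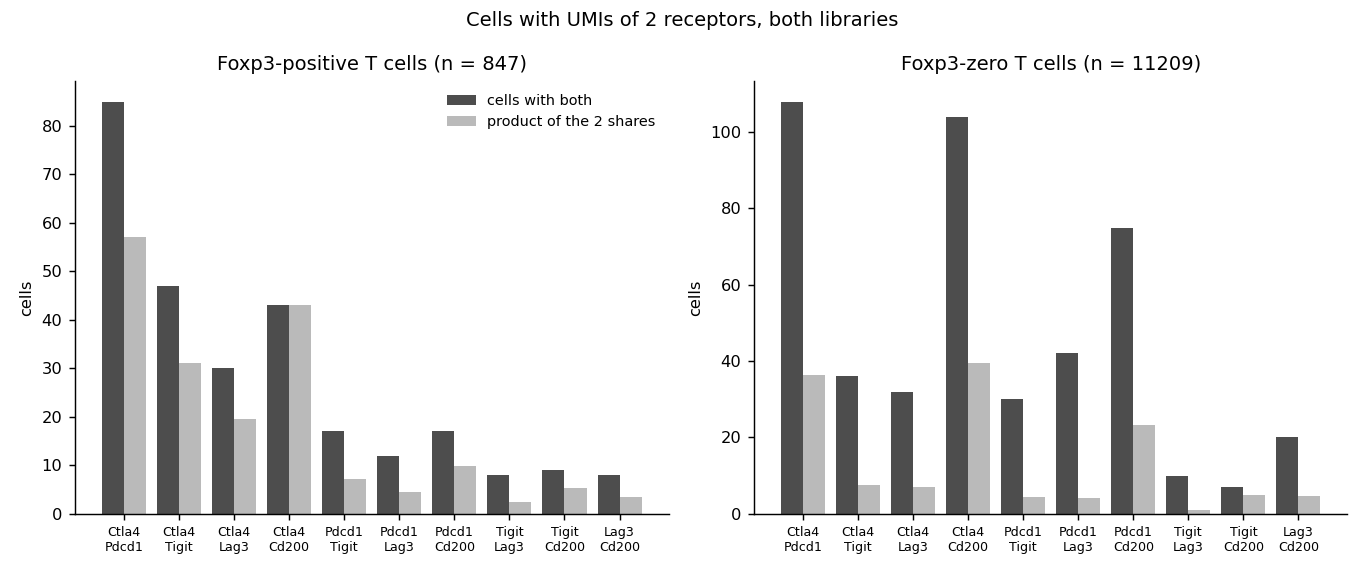
Number of T cells (y axis, from 0) with UMIs of both receptors of each of the 10 pairs (dark bars) beside the number that the product of their shares gives (light bars), in Foxp3-positive cells (left) and Foxp3-zero cells (right) of both libraries at full depth. The dark bar is the higher in each pair except Ctla4 with Cd200 in Foxp3-positive cells, where both stand at 43 cells.

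The genes whose pattern over sums was most like each member's were named by a fixed rule, the 3 highest Pearson correlations of log2(CPM + 1) over 30 sums of hashed sample and Foxp3 class, among 7567 genes with a mean of at least 10 CPM. The sums share their libraries and fall into 2 Foxp3 classes, so the correlations are descriptions. For Ctla4 they were Icos (0.96), Myo1e (0.96) and Ikzf2 (0.96), and over the 16 Foxp3-zero sums alone these had 0.93, 0.88 and 0.70. For Pdcd1 they were Cst7 (0.86), Tasp1 (0.84) and Crem (0.84), for Tigit Fuca2 (0.88), Lamc1 (0.83) and Glul (0.82), and for Lag3 Gabarap (0.80), Naxe (0.79) and Ubl5 (0.79). For Cd200 they were Nt5e (0.72), Mpg (0.71) and Cryzl1 (0.68), which had 0.61, 0.44 and 0.36 over the Foxp3-zero sums. Ctla4 had the closest neighbours and Cd200 the least close.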

How the data were processed

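Single CD4 T cells in 2 hashed 10x 3' libraries were measured, with UMI counts per gene and barcode deposited by the authors; the counts were made with Cell Ranger 6.1.0, per the file headers, on mm10, per the submitters' processing notes. A barcode was kept as a cell from 500 genes and 1000 UMIs upwards if mitochondrial genes took less than 10% of its UMIs. Hashtag counts were turned into samples with a posterior of at least 0.95, and cells of several hashtags stayed in library sums only. Cells were clustered with scanpy 1.11.5 (2000 variable genes, 30 components, 15 neighbours, resolution 1.0), clusters were named from fixed markers, and no other doublet caller was run. UMIs were summed per sample or library and class, given as CPM without further scaling, and tested with edgeR 4.0.16 in R 4.3.3 (TMM, filterByExpr with a minimum count of 10, quasi-likelihood F test, Benjamini-Hochberg adjustment over all genes tested, threshold 0.05). All adjusted p-values are edgeR's unless DESeq2 1.42.0 is named. Standard errors are the log2 fold change divided by the square root of F. Sums per hashed sample needed 20 cells, or 10 for the Cxcr6 alternative. The scripts were tested on simulated data. Of 2-fold changes, 92.6% were recovered for Foxp3, 37% for Cxcr6 in Foxp3-positive cells, 84.7% in Foxp3-zero cells and 26.3% for their difference. False calls made up 4.74%, 6.48%, 8.81% and 2.22% of the calls. The members and gene lists were chosen with earlier results of these data known. Named genes were the 5 members, the 3 genes most like each over sums, and up to 4 examples per list.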

Additional observations from a re-analysis of the deposited data

Results flagged for a closer look

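Cd200 in Foxp3-positive cells of spleen replicate 1 stood apart from the other 3 spleen samples. It had 6.17 CPM, from 1 UMI, where the others had 39.7 to 40.6 CPM, and the gap to the nearest of them was 0.975 of the whole range. Chance flags about 1 in 20 groups of this size, and this was the 1 flagged among 35 groups looked at.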

How the results depend on the processing

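Counts of genes passing moved by over 1.5 times in these cases. For Foxp3-positive against Foxp3-zero cells (1300 genes) no count filter gave 2126, thinned cells 480, sums per library 2390 and leaving out samples or a library 639 to 1278, with 639 without library 2 and 791 without library 1. For Cxcr6 in Foxp3-positive cells (400) thinned cells gave 129 and sums per hashed sample 44; in Foxp3-zero cells (4870) DESeq2 gave 2834, thinned cells 2363 and sums per hashed sample 2185; for their difference (554) thinned cells gave 166 and sums per hashed sample 117. For tissues thinned cells gave 1871 in Foxp3-zero cells (4740; 2743 to 4800 with samples left out) and 210 in Foxp3-positive cells (520; 196 to 534). Ctla4 changed sign for Cxcr6 in Foxp3-zero cells with sums per hashed sample (-0.055, adjusted p = 0.85, no difference detected); the cause was not tested. Cells with at least 2 receptors at 1300 UMIs made up 2.30% and 3.13% of Foxp3-positive cells and 0.413% and 0.387% of Foxp3-zero cells.

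Scaling by library size alone gave 1149 higher and 344 lower genes for Foxp3, with a median over all genes of 0.11, 4128 and 1301 for Cxcr6 in Foxp3-zero cells (0.16), and 155 and 666 for the difference (-0.19). No pairing of samples by replicate number was detected. Deviations of same-numbered tissues correlated at -0.141 to 0.124 in Foxp3-zero cells, and the replicate block gave 4616 and 522 genes for tissues. With 2 samples per tissue and library, these correlations cannot tell whether equal numbers share an animal. Without the sample as replicate block the Foxp3 comparison gave 1495. Leaving out a library for Cxcr6 left no residual degrees of freedom and was not run. Leaving out 2 clusters of few UMIs, chosen after seeing the data, gave 1317, 425, 4935, 599, 4788 and 524 genes for Foxp3, Cxcr6 in both classes, their difference and the tissues of Foxp3-zero and Foxp3-positive cells. Tigit and Lag3 are limited by depth, with 178 and 202 UMIs in all T cells.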
